A study of Mus musculus with 8 samples.

Results

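The genes described here are those of the IL-6, IL-10 and IL-12 cytokine families that macrophages make or answer to: the ligand genes Il6, Osm, Lif, Il10, Il12b, Il23a, Il27 and Ebi3, the receptor gene Il10ra and the feedback gene Socs3. They were taken as the gene probes whose RefSeq transcript belongs to one of these 10 genes. Probes were found for 9 of the 10, each by 1 probe, among 20886 genes named on the array. Il12b was not matched to a probe through the gene table used and is not analysed here. Of the 9, 7 passed the filter on dim signals and were tested among 20738 features. Il23a and Lif did not pass and are given as measured values only.

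The study compared macrophages of wild-type (WT) mice with those of EP2-KO mice (EP2KO), which lack the EP2 receptor for prostaglandin E2 encoded by Ptger2. Mice of both genotypes had received LPS, the endotoxin of Gram-negative bacteria and a ligand of TLR4, so no group without LPS enters these comparisons. There were 4 arrays of each genotype, numbered WT 1 to 4 and EP2KO 1 to 4. The labels name all mice as male and do not state the age, the LPS dose and time, the site the macrophages came from, how the receptor gene was deleted, or whether each array is a separate mouse, so the p-values reflect the spread among these samples, which may be technical.

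IL-6, oncostatin M (Osm) and leukaemia inhibitory factor (Lif) signal through the shared receptor chain gp130 (Il6st) and mainly activate the transcription factor STAT3. The IL-12 family is built of paired subunits: IL-23 joins the Il23a product to that of Il12b, and IL-27 joins the Il27 product (p28) to that of Ebi3. IL-10 binds a receptor of the Il10ra and Il10rb chains, also acts through STAT3, and restrains inflammatory gene expression in macrophages. SOCS3, induced by STAT3, binds gp130 and limits IL-6 signalling. EP2 raises cAMP, and in macrophages given LPS, cAMP is known to favour IL-10 and to restrain IL-12.

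Promoter sequences of 5 of the 10 genes were in the RefSeq table for GRCm38.p6, each from 250 bases before to 50 bases after the annotated start. Those of Il6 (chr5:30012864-30013163, plus strand), Ebi3 (chr17:55952373-55952672, plus strand) and Socs3 (chr11:117969317-117969616, minus strand) are shown, since these 3 genes moved the same way between the arrays of the 2 slides described further on. Each is written 5′ to 3′, and capitals mark the letters that matched one of the searched motifs.
Il6 promoter: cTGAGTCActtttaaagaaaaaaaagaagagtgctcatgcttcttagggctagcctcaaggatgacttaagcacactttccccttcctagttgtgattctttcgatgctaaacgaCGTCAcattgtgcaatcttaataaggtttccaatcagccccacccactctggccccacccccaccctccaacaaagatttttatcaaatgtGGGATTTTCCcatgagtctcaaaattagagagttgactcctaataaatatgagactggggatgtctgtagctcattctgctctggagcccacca
Ebi3 promoter: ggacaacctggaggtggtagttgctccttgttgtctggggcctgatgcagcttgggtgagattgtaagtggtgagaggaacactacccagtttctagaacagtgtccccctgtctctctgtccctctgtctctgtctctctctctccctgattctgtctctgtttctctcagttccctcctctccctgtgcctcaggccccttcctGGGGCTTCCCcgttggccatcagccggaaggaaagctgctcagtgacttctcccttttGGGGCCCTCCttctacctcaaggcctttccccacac
Socs3 promoter: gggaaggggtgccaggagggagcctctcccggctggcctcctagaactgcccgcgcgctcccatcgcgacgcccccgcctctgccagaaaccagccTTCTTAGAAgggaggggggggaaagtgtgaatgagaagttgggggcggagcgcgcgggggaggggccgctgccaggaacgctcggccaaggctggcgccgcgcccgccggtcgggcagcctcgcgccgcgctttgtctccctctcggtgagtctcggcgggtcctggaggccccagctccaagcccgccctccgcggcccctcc
The motifs, searched on both strands, were the core of the cAMP response element (TGACG), the full element (TGACGTCA, which contains the core), AP-1 (TGANTCA), STAT (TTCNNNGAA) and the NF-kB site. In the Il6 promoter the cAMP core lay on the minus strand 135 bases before the start, an NF-kB match 44 bases before it and an AP-1 match 249 bases before it. The Ebi3 promoter held 2 NF-kB matches, 1 of them 44 bases before the start. The Socs3 promoter held 1 STAT match, 154 bases before the start. Of the promoters not shown, that of Lif held 1 NF-kB match and 1 AP-1 match, and that of Il12b held no match. Of all 32851 promoters in the table, 20.8% held the cAMP core, 1.79% the full element, 7.81% AP-1, 8.3% STAT and 8.46% the NF-kB site. A match describes the letters of the window only.

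Between 25555 and 32147 of 39429 probes were well above background per array. The labels were checked on the targeted gene: the signal of Ptger2 was between 0.899 and 1.12 on the WT arrays and between 0.224 and 0.357 on the EP2KO arrays, and the ranges did not overlap (difference -1.76 ± 0.17 log2 units; limma adjusted p = 0.0616, and 0.0328 with the slide as a block). Signals here and below are the processed intensity divided by the array's 75th percentile. The sources used here do not say if the Ptger2 probe covers deleted sequence, and it checks the labels only if it does. Against the label male, both probes of Xist were well above background on 8 of 8 arrays, and the 5 probes of Ddx3y, Eif2s3y, Kdm5d and Uty were not, except 1 Uty probe on 1 array. Of 8 macrophage markers 7 were matched, Adgre1 (F4/80) and Itgam among them, and all 7 were well above background on all 8 arrays. The samples were hybridised on a pair of slides, each with its own scan day: slide 1 held WT 1, WT 2, EP2KO 1 and EP2KO 2, and slide 2 the other arrays. Slide and scan day cannot be told apart, and neither can genotype and array position, since WT arrays held positions 1 and 2 on both slides. With genotype in the model, 43.2% of all features differed between the slides, so each value is also given by slide.

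Il6, the pyrogenic cytokine that also drives the acute phase response, separated the slides rather than the genotypes. On slide 1 its signal was 0.504 and 0.603 on WT 1 and WT 2 and 0.847 and 0.860 on EP2KO 1 and EP2KO 2. On slide 2 it was 0.0369 and 0.0208 on WT 3 and WT 4 and 0.0204 and 0.00987 on EP2KO 3 and EP2KO 4. Both EP2KO arrays were thus above both WT arrays on slide 1 and below both on slide 2, and the genotypes overlapped over all 8 arrays. All 8 spots were well above background. Osm, a gp130 cytokine of activated myeloid cells, had a signal of 0.0980, 0.0756, 0.0913 and 0.0718 for WT 1 to 4 and of 0.115, 0.103, 0.0759 and 0.0859 for EP2KO 1 to 4. Its range was narrow and the genotypes overlapped, as did the slides. Lif, whose product acts through the LIF receptor and gp130, passed the detection call on 2 arrays only, WT 3 at 0.0153 and EP2KO 2 at 0.0102, so no difference is given for it.

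**Figure D1:**
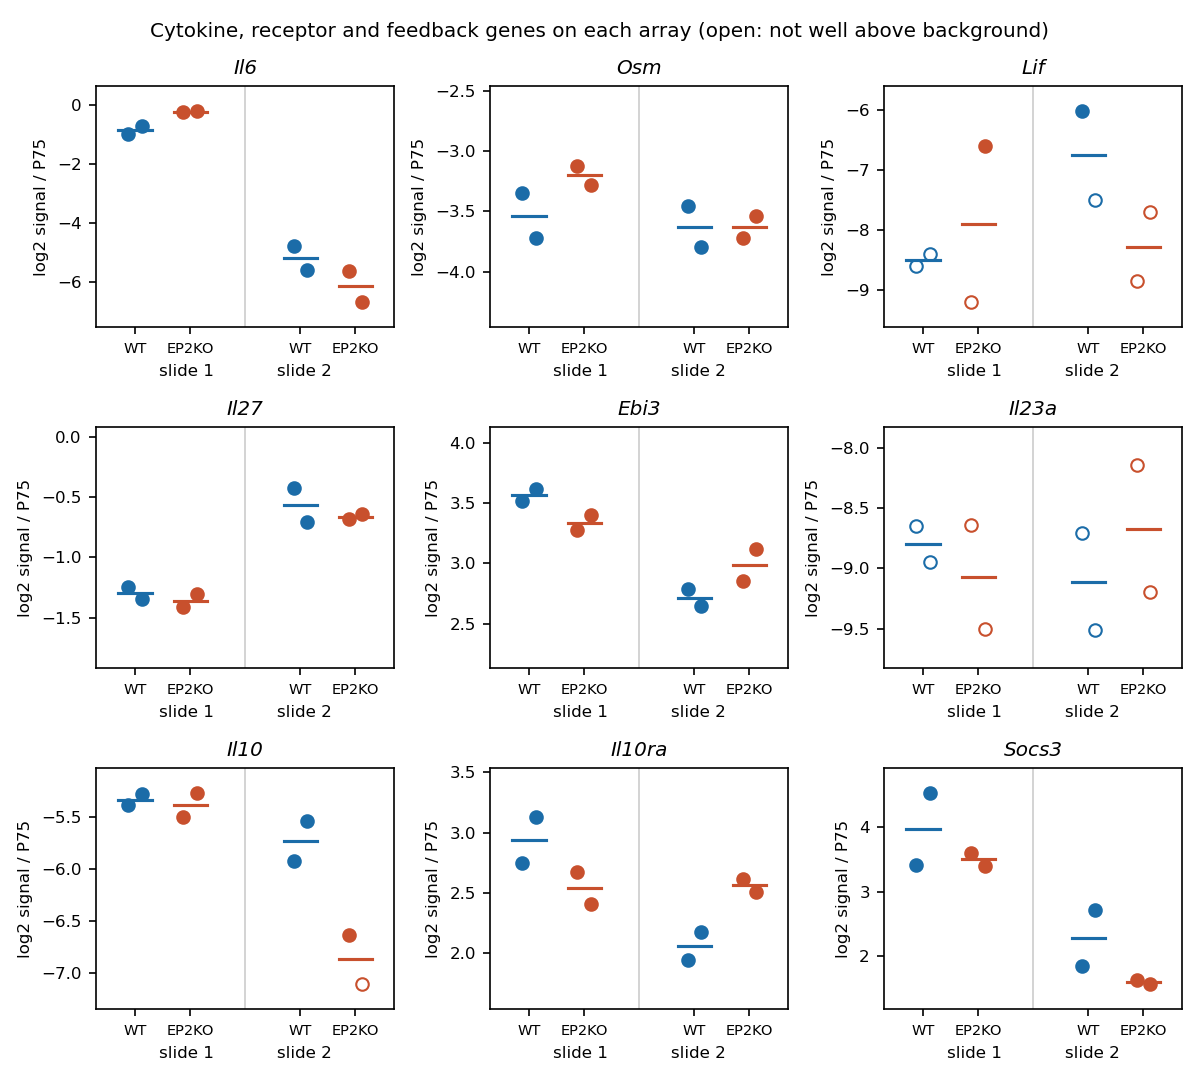
Signal of the 9 genes with a probe on each array, as log2 of the processed signal over the array's 75th percentile (P75), with WT in blue and EP2KO in orange, slide 1 left and slide 2 right of the grey line; bars are the means of 2 arrays and open points were not well above background. Il6 fell from between 0.504 and 0.860 (linear scale) on slide 1 to between 0.00987 and 0.0369 on slide 2 in both genotypes, while Osm stayed between 0.0718 and 0.115.

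IL-27 is a cytokine that limits T cell inflammation. The scaled signals of its subunit genes moved in opposite directions between the slides, and over all 8 arrays the genotypes overlapped for both genes. Il27 had a signal of 0.423, 0.393, 0.744 and 0.612 for WT 1 to 4 and of 0.376, 0.405, 0.622 and 0.640 for EP2KO 1 to 4. Every slide 2 array lay above every slide 1 array. Ebi3 had a signal of 11.4, 12.3, 6.90 and 6.24 for WT 1 to 4 and of 9.66, 10.5, 7.24 and 8.68 for EP2KO 1 to 4. After scaling, every slide 2 array lay below every slide 1 array, by less in EP2KO than in WT. Within each slide the scaled Ebi3 signals of the genotypes did not overlap, with EP2KO lower on slide 1 and higher on slide 2. The unscaled signals of the genotypes overlapped on both slides. Before scaling the slides overlapped for Ebi3, since EP2KO 4 (processed signal 12066) lay above EP2KO 1 (11890). Il23a, the p19 subunit of IL-23, was not well above background on any of the 8 arrays (signal 0.00137 to 0.00354), where the lowest signal called well above background was 0.00621 to 0.0112, depending on the array.

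Il10, the anti-inflammatory cytokine, was low on all arrays and lowest on the EP2KO arrays of slide 2. Its probe was spotted 10 times per array, and the mean signal was 0.0240, 0.0258, 0.0165 and 0.0216 for WT 1 to 4 and 0.0221, 0.0259, 0.0101 and 0.00724 for EP2KO 1 to 4. All 10 spots were well above background on 6 arrays, 9 spots on EP2KO 3 and 3 spots on EP2KO 4. The SD over the spots of 1 array was 0.11 to 0.16 log2 units on the 6 arrays, 0.27 on EP2KO 3 and 0.45 on EP2KO 4. Before scaling, the processed signal was 24.9 to 32.7 on the 6 arrays and 11.3 and 10.1 on EP2KO 3 and EP2KO 4. The WT arrays stood at 26.2 and 25.4 on slide 1 and 24.9 and 31.8 on slide 2 before scaling, so the lower WT signal on slide 2 appears only after division by the 75th percentile. On EP2KO 4, only 3 of the 10 spots were well above background. Il10ra, the ligand-binding chain of the IL-10 receptor, had a signal of 6.72, 8.76, 3.84 and 4.52 for WT 1 to 4 and of 6.36, 5.32, 6.14 and 5.70 for EP2KO 1 to 4. The EP2KO values lay between the WT values of slide 2 and those of slide 1.

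**Figure D2:**
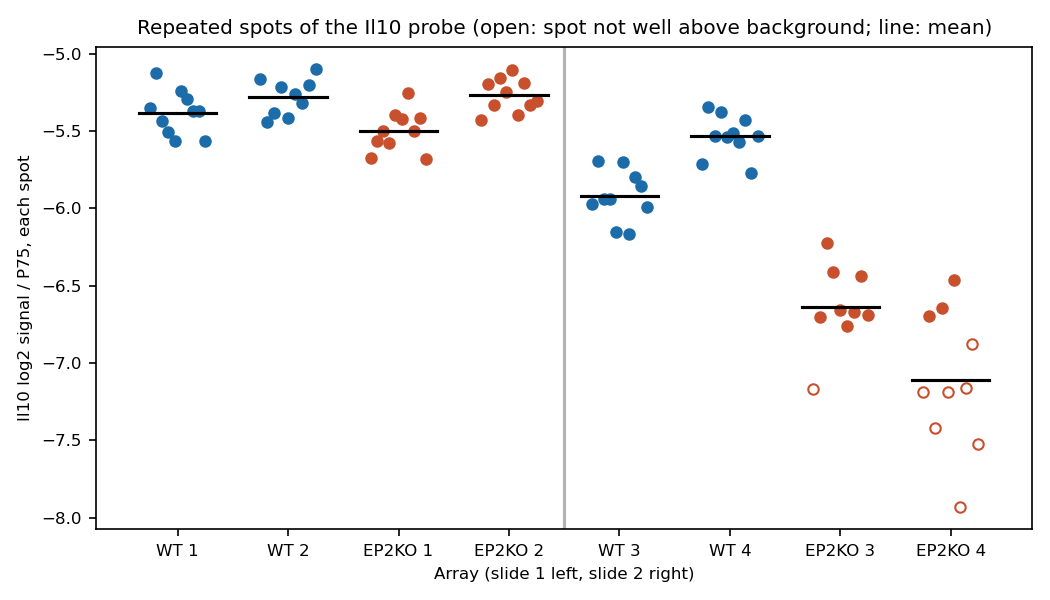
Each spot of the Il10 probe on each array (log2 of the signal over the array's 75th percentile, outlier spots left out), slide 1 left and slide 2 right of the grey line, with the array mean as a black line and spots not well above background open. The mean log2 signal was between -5.92 and -5.27 on 6 arrays, -6.63 on EP2KO 3 and -7.11 on EP2KO 4, where 3 spots were well above background.

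Socs3, the feedback inhibitor of gp130 signalling, was lower on slide 2 in both genotypes. Its signal was 10.6, 23.0, 3.60 and 6.59 for WT 1 to 4 and 12.2, 10.5, 3.12 and 2.98 for EP2KO 1 to 4. WT 2 had the highest value, and the 3 other slide 1 arrays lay between 10.5 and 12.2. The genotypes overlapped and the slides did not.

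In the comparison of EP2KO with WT, which asks how macrophages of LPS-treated mice differ when EP2 is missing, 0 of the 7 tested genes passed. The test was limma with Benjamini-Hochberg adjustment over all features, two-sided, at an adjusted p of 0.05. Over all features 0.00964% were called (2 features), 0.0193% when slide was a block, and 0% when replicate number was. At an unadjusted p under 0.05 there were 0 of the 7 genes, beside 1.98% of all features. When slide was a block there was 1, Il10, beside 7.34%. Il10 passed the filter only through WT, so this count is a description. Arrays of the genotypes did not overlap for 0 of the 7 genes, against 1.39% of all features. The median difference (EP2KO minus WT) over the 7 genes was -0.08 log2 units, beside -0.03 over all features, with 4 genes lower and 3 higher in EP2KO.

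Il10 was well above background on 4 of 4 WT arrays and 3 of 4 EP2KO arrays, so it passed the filter only through WT, where its signal was higher, and its values are a description. Its measured difference was -0.60 ± 0.42 log2 units (SE, n = 4 arrays per genotype; limma adjusted p = 1.00). In the slide-blocked fit the SE was 0.25 and the 95% interval ran from -1.19 to -0.0053 (limma adjusted p = 0.675). The exact two-sided permutation test over 70 arrangements of the arrays gave p = 0.343. Socs3 differed by -0.57 ± 0.70, with a slide-blocked interval from -1.24 to 0.09. Neither passed the adjusted threshold, and neither interval shows that the genotypes were alike.

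For Il6 the fit without a slide term could not resolve even large changes, since its SE held the slide difference. The difference was -0.17 ± 1.87 log2 units (exact permutation p = 0.857), with a 95% interval from -4.50 to 4.16. With the slide as a block the SE was 0.40 and the interval -1.11 to 0.78. The differences of the other genes were as follows, with Il27 at -0.08 ± 0.28, Ebi3 at 0.02 ± 0.26, Osm at 0.17 ± 0.18 and Il10ra at 0.05 ± 0.26. Their slide-blocked 95% intervals were -0.32 to 0.15 for Il27, -0.31 to 0.35 for Ebi3, -0.18 to 0.51 for Osm and -0.45 to 0.55 for Il10ra. For Il27 the slide-blocked interval ran from 1.25-fold down to 1.11-fold up. The Il27 interval of the fit without a slide term was wider, from -0.73 to 0.57. Neither interval holds the choice of scaling, and with median scaling the difference of Il27 was 0.063.

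**Figure D3:**
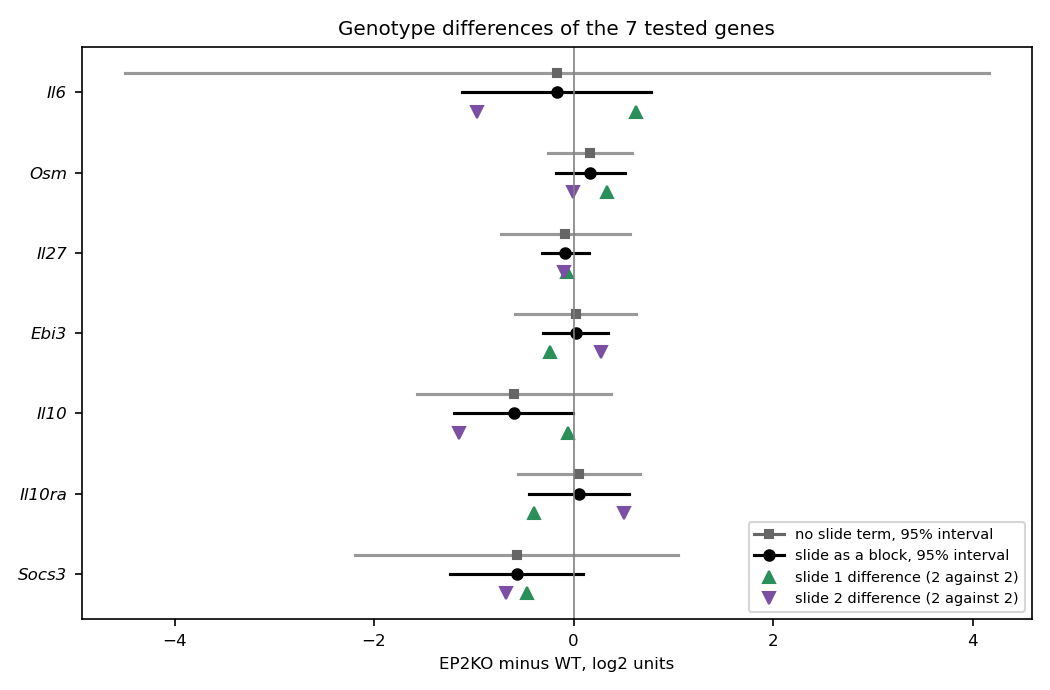
EP2KO minus WT difference (log2 units) of the 7 tested genes, with 95% intervals from the fit without a slide term (grey) and with the slide as a block (black), and the differences within slide 1 and slide 2, each of 2 against 2 arrays. The grey interval of Il6 runs from -4.50 to 4.16 and the black one from -1.11 to 0.78, and 0 of the 7 genes passed the adjusted threshold.

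Genotype differences were also taken within each slide. They had opposite signs for 4 of the 7 genes, Il6, Osm, Ebi3 and Il10ra, beside 63.7% of all features. Il6 differed by 0.63 on slide 1 and by -0.97 on slide 2 (within-slide SE 0.40). Ebi3 differed by -0.23 and 0.27 (SE 0.15), and Il10ra by -0.40 and 0.51 (SE 0.18), so both lay lower in EP2KO on slide 1 and higher on slide 2. For 3 of the 7 genes, Il6, Ebi3 and Il10ra, the scaled signals of the genotypes did not overlap on either slide and lay in opposite directions, beside 17.4% of all features. Before scaling, the processed signal of Ebi3 overlapped between genotypes on both slides (12487 and 12128 in WT against 11890 and 13273 in EP2KO on slide 1, 10409 and 9177 against 8136 and 12066 on slide 2), and that of Il10ra overlapped on slide 1 (7343 and 8642 against 7828 and 6702). Il10 differed by -0.05 on slide 1 and by -1.15 on slide 2 (SE 0.22; limma adjusted p = 0.0736). On slide 2, 1 of the 2 EP2KO arrays was well above background: EP2KO 4, at 0.00724, lay below the lowest signal called well above background on that array, 0.00762, so no fold is given.

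The difference between slides was tested with an interaction term. It was -1.60 ± 0.57 for Il6 (limma adjusted p = 0.190), -1.09 ± 0.31 for Il10 (limma adjusted p = 0.146), 0.90 ± 0.26 for Il10ra (limma adjusted p = 0.150) and 0.50 ± 0.21 for Ebi3 (limma adjusted p = 0.233). These 4 of 7 had an unadjusted p under 0.05, beside 21.1% of all features, and 0 of the 7 passed after adjustment, beside 0.0145%. Il10, among the 4, passed the filter only through WT, so its interaction is a description. Leaving out WT 1 raised the count over all features from 3 to 1442, with 0 of the 7 genes among them, and the interaction of Il10 then was -1.04.

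**Figure D4:**
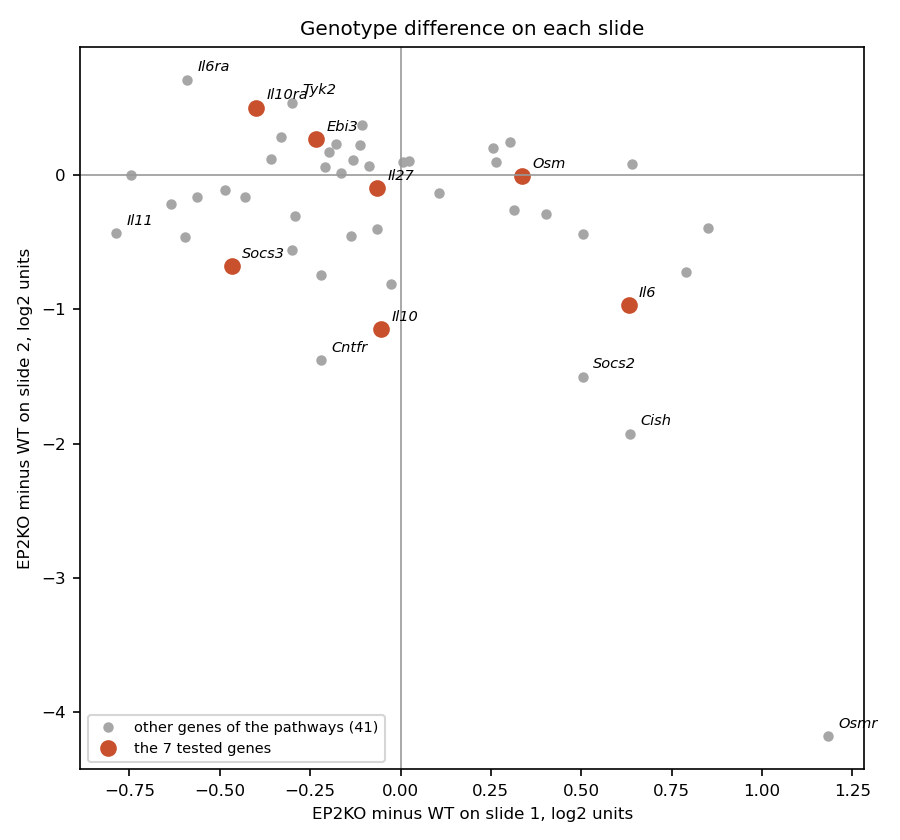
EP2KO minus WT difference (log2 units) on slide 1 (horizontal) and slide 2 (vertical) for the 7 tested genes (orange) and 41 other genes of the same pathways (grey), each from 2 against 2 arrays. Il6 lies at 0.63 and -0.97, Il10 at -0.05 and -1.15, and Osmr and Cish lie lowest on slide 2 at -4.18 and -1.93.

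Between the slides, 5 of the 7 genes differed in the fit with genotype in the model, beside 43.2% of all features: 4 were lower on slide 2 (18.2% of all features were) and 1 was higher (25.1%). Il6 was lower by 34.6-fold (log2 difference -5.11 ± 0.40, limma adjusted p = 0.000185), namely 19.9-fold in WT and 60.1-fold in EP2KO. With another background correction (normexp) its difference was -2.88 (limma adjusted p = 0.0106). Socs3 was 3.45-fold lower (-1.79 ± 0.28, limma adjusted p = 0.00257), by 3.21-fold in WT and 3.71-fold in EP2KO. Ebi3 was 1.52-fold lower (-0.60 ± 0.14, limma adjusted p = 0.0124), a call lost with normexp (limma adjusted p = 0.0522). Il27 was 1.64-fold higher (0.71 ± 0.10, limma adjusted p = 0.00160). In scaled signal the 2 subunit genes of IL-27 therefore changed in opposite directions. Il10 was lower (-0.94 ± 0.25, limma adjusted p = 0.0215), a call lost without EP2KO 1, EP2KO 2 or EP2KO 3 (limma adjusted p of 0.0576 to 0.0654) and a direction that turned under that correction (0.18). Osm and Il10ra did not pass, at -0.26 ± 0.15 and -0.43 ± 0.21. Tested within WT arrays, Il6, Il27, Ebi3, Il10ra and Socs3 passed, beside 32.1% of all features. Within EP2KO arrays Il6, Il10, Il27 and Socs3 passed, beside 38.8%. The scaled signals of the slides did not overlap for 5 of the 7 genes, beside 43.1% of all features. Before scaling, those of Ebi3 and Il10 did overlap.

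**Figure D5:**
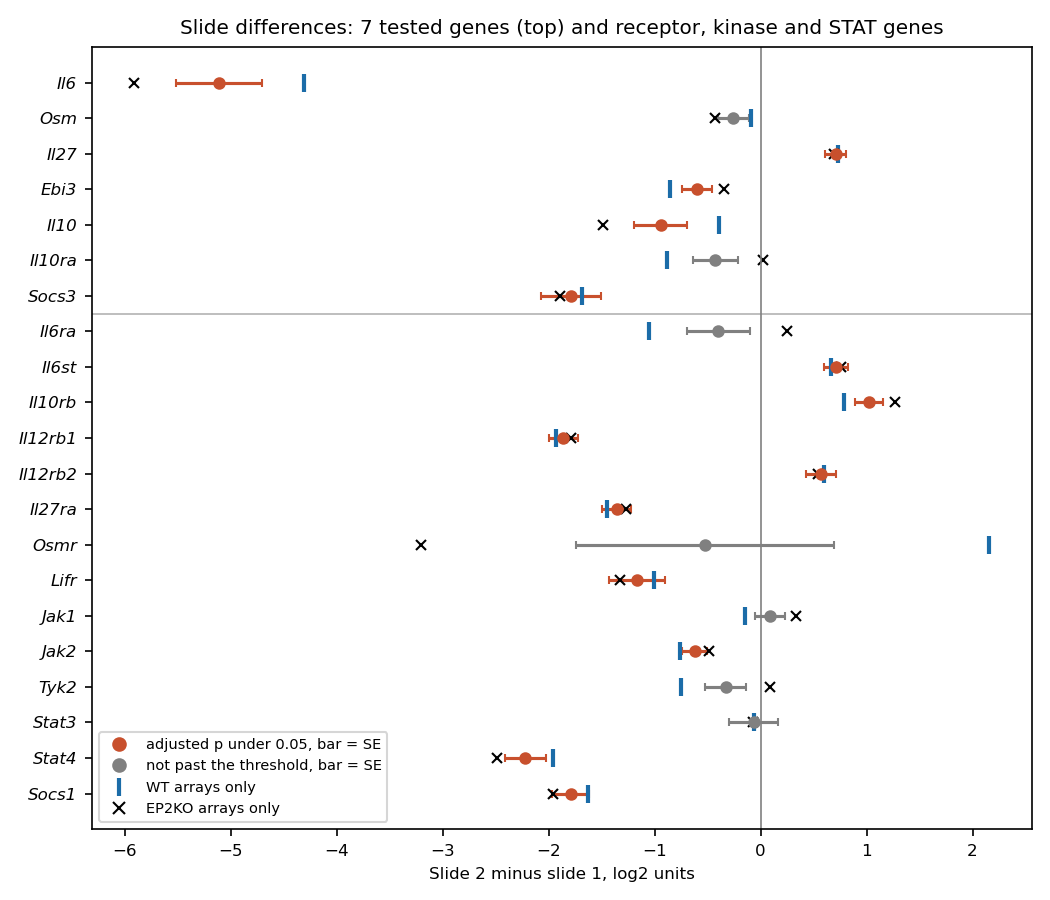
Slide 2 minus slide 1 difference (log2 units) of the 7 tested genes and, below the line, of receptor, kinase and STAT genes, with the SE as bars and genotype in the model; ticks and crosses give WT and EP2KO arrays alone. Il6 stands at -5.11 and Il27 at 0.71, and Osmr has opposite signs in WT (2.16) and EP2KO (-3.21).

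Markers of other cell types moved with the slides and with single arrays, and their part in these values was not tested. In RNA of whole cell samples, fewer cells of a type and less RNA per cell cannot be told apart. The summed signal of 5 B cell markers, all measured, was 55.9 to 92.8 on slide 1 and 4.41 to 11.5 on slide 2. That of 6 markers of large peritoneal macrophages was 106.6 to 155.8 on slide 1, mostly from Icam2 (79.8 to 125), and 18.0 to 22.9 on slide 2. Of these 6, 5 passed as lower on slide 2, beside 18.2% of all features. Cxcl13 did not pass (-2.07 log2 units, with 0.36 in WT and -4.50 in EP2KO). The summed signal of 6 measured neutrophil markers was 14.8 to 51.5 on slide 1 and 3.69 to 9.15 on slide 2. The neutrophil markers did not move together. S100a9 (-4.13 log2 units), S100a8 (-2.24) and Cxcr2 (-2.23) passed as lower on slide 2, Elane passed as higher (1.36), and Mpo did not pass (-0.55). The sum of 7 macrophage markers was 275 and 326 in WT and 253 and 267 in EP2KO on slide 1. On slide 2 it was 234 and 193 in WT and 267 and 309 in EP2KO. Of the 7, Cd14 (-1.24 log2 units) and Itgam (-0.66) passed as lower on slide 2, beside 18.2% of all features. Fcgr1 (0.97) passed as higher, beside 25.1%. The 8 fibroblast and mesothelial markers summed to 18.3 (WT 2) to 126 (WT 4) in WT and to 3.62 (EP2KO 4) to 82.4 (EP2KO 2) in EP2KO. The 8 measured T and NK cell markers summed to 9.50 and 7.25 in WT and 3.73 and 3.27 in EP2KO on slide 1, and to 2.33 and 2.28 in WT and 1.70 and 2.53 in EP2KO on slide 2. The largest part on slide 2 was Cd4 (0.890 to 1.56), which did not pass between slides (0.35 log2 units). The 7 others passed as lower on slide 2, beside 18.2% of all features. The genotype difference of Cd4 was -0.36 on slide 1 and 0.17 on slide 2, and the others were lower in EP2KO on each slide. For genotype 0 of the 8 passed, with or without the slide as a block. The 6 mast cell markers summed to 17.0 and 10.5 in WT and 26.3 and 28.1 in EP2KO on slide 1, and to 1.01 and 1.23 in WT and 7.46 and 12.4 in EP2KO on slide 2. Within slide 2, of 2 against 2 arrays, 3 of the 5 tested mast cell markers passed as higher in EP2KO, beside 0.94% of all features called. Over all 8 arrays 0 of the 5 passed for genotype, with or without the slide as a block. The 5 dendritic cell markers summed to 23.4 to 35.9 in WT and 22.3 to 43.0 in EP2KO, mostly from Siglech. Of the 4 tested, 3 passed as lower on slide 2, beside 18.2% of all features. These were Ccr7 (-3.13 log2 units), Zbtb46 (-1.07) and Flt3 (-1.01), while Siglech did not pass (0.45). No matched marker of these lists was at background on all 8 arrays.

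Of 48 further genes of these pathways, 41 were tested and 0 passed for genotype with or without the slide as a block, with 1 and 3 at an unadjusted p under 0.05, beside 1.98% and 7.34% of all features. Their median difference was -0.02, with 25 lower and 16 higher in EP2KO. Among the receptor chains, the genotype difference was 0.06 ± 0.32 for Il6ra, 0.05 ± 0.29 for Il6st, 0.13 ± 0.39 for Il10rb, -0.07 ± 0.51 for Il27ra and -0.30 ± 0.49 for Lifr. The IL-12 and IL-23 receptor chain gene Il12rb1 stood at -0.53 ± 0.68 by its brighter probe and 0.25 by the other. Il12rb2 was at 0.23 ± 0.25 by its brighter probe and -0.04 by the other. Among kinases and STAT factors, Jak1 was at -0.12 ± 0.16, Jak2 at -0.07 ± 0.26, Tyk2 at 0.12 ± 0.23, Stat3 at -0.30 ± 0.23 and Stat4 at -0.48 ± 0.82. The feedback gene Socs1 was at -0.23 ± 0.67. None of these passed the test.

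Osmr, the oncostatin M receptor chain that stromal cells use, had the widest range of the receptor genes. Its signal was 0.499, 0.161, 1.11 and 1.44 for WT 1 to 4 and 0.516, 0.804, 0.208 and 0.0234 for EP2KO 1 to 4. WT 2 was lowest among WT arrays and EP2KO 4 among EP2KO arrays. The stromal marker sum was also lowest in its genotype on these 2 arrays, at 18.3 and 3.62. A link between Osmr and the stromal markers was not tested. The difference was -1.50 ± 1.18, with 1.18 on slide 1 and -4.18 on slide 2. The IL-12 p35 gene Il12a was well above background on EP2KO 1 and EP2KO 2 only, and Il23r, the IL-23 receptor chain, on WT 2, WT 3, EP2KO 1 and EP2KO 2, so neither was tested.

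Of the remaining pathway genes, those with the smallest unadjusted p for genotype were Il11, Zfp36, Cntfr and Dusp1. Il11, a gp130 cytokine of stromal cells, had a signal of 0.0366, 0.0413, 0.0283 and 0.0236 for WT 1 to 4 and of 0.0222, 0.0228, 0.0230 and 0.0160 for EP2KO 1 to 4. All EP2KO values lay below all WT values, by -0.61 ± 0.22 log2 units (limma adjusted p = 1.00; exact permutation p = 0.0286, the smallest that 70 arrangements can give). Il11 alone of the 41 tested genes had genotypes that did not overlap, beside 1.39% of all features. It was named for its small p, so these values are a description. Its signals were low, where the lowest signal called well above background was 0.00621 to 0.0112, depending on the array. Zfp36, whose product speeds the decay of cytokine mRNA, was at -0.42 ± 0.19. Cntfr, a chain of the ciliary neurotrophic factor receptor, was at -0.80 ± 0.52, but was well above background on 4 WT arrays and 2 EP2KO arrays, so it passed the filter only through WT. Dusp1, a MAP kinase phosphatase, was at -0.37 ± 0.29. Within slide 2, 1 of the 41 genes passed, Cish, named here after its values were seen, beside 0.94% of all features. This STAT5-induced inhibitor of cytokine signalling was lower by -1.93 ± 0.29 on slide 2 (limma adjusted p = 0.0488) and stood at 0.64 on slide 1. Its signal was 0.885, 0.588, 0.235 and 0.389 for WT 1 to 4 and 1.12, 1.12, 0.0803 and 0.0787 for EP2KO 1 to 4, and its interaction had a limma adjusted p of 0.103.

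Between the slides, 9 of the 41 genes were higher on slide 2 and 15 lower, beside 25.1% and 18.2% of all features. Il12rb1 was lower by its brighter probe (-1.86 ± 0.14, against 0.05 by the other), as were Stat4 (-2.22 ± 0.19), Socs1 (-1.79 ± 0.17), Il27ra (-1.36 ± 0.14), Lifr (-1.17 ± 0.27) and Jak2 (-0.62 ± 0.12). Il10rb (1.02 ± 0.13), Il6st (0.71 ± 0.11) and Il12rb2 (0.57 ± 0.14) were higher. All 9 passed limma's adjusted threshold, with adjusted p of 0.000153 to 0.0164. The gp130 chain gene was thus higher on the slide where Il6 and Socs3 were lower.

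Genes with the most similar pattern were taken by the root mean square difference of log2 values centred on each slide, over 8 arrays and 14475 other named genes. For Il6 the nearest were Il7 (0.18 log2 units), Fhad1 (0.21) and Sprn (0.21). For Socs3 they were Olfm1 (0.13), Retnla (0.13) and Kiss1r (0.14). For Il10 they were Gm5797 (0.11), Mthfd2 (0.11) and Ust (0.15). Their differences on slide 2 were -1.07, -1.09 and -1.07, beside -1.15 for Il10, a closeness set by the way they were picked. On EP2KO 4 the Il10 signal, 0.00724, lay below the lowest signal called well above background on that array, 0.00762.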

How the data were processed

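RNA of 8 macrophage samples was measured on 1-colour (Cy3) Agilent arrays. The deposited values are scanner intensities that the authors extracted with Feature Extraction, version 10.7.1.1 per the file headers and 9.1 per the submitters' processing notes, which differ. The deposited value table equals the processed intensity (43969 matched entries, largest log2 difference 0). From each array of 44397 spots, 1377 control spots and outlier-flagged spots were left out, spots of 1 probe were averaged, and log2 of the processed intensity minus the array's 75th percentile was used. Of 39429 probes, 27508 were named through RefSeq transcripts of the GRCm38.p6 gene table. A probe was kept if, in 1 genotype or both, 0.5 or more of its spots were well above background on every array, and the brightest probe stood for a gene, leaving 20738 features. No gene spot was saturated (0).

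Tests were two-sided, with limma 3.58.1 in R 4.3.3 and Benjamini-Hochberg adjustment over all features, and exact permutation over 70 arrangements for single genes. The main design had genotype alone. Slide and replicate number as blocks, each slide alone, each array left out, array weights, other scalings, filters and a normexp background (offset 50, on the median spot signal) were alternatives. Same-numbered arrays correlated in their deviations from the group means (r = 0.74, 0.12, 0.55 and 0.43 for replicates 1 to 4), but each number also shares a slide, and with slides centred r was -0.39 and -0.10. Precision is limited by how few arrays there are. The genes and lists were chosen with earlier results of these data known. Named with values are the 9 genes with a probe, Ptger2, the receptor, kinase and STAT genes (1 of which is not reported here), the 4 other pathway genes with the smallest unadjusted p, Cish (chosen after its values were seen), and the 3 genes most alike to each of the 3 most variable genes.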

Additional observations from a re-analysis of the deposited data

Results flagged for a closer look

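For 3 of the 7 tested genes, every EP2KO array lay on one side of every WT array on slide 1 and on the other side on slide 2, beside 17.4% of all features. For Ebi3 on both slides and Il10ra on slide 1 this held after division by the 75th percentile and not for the unscaled signal. The difference between the slides (slide 2 minus slide 1 of EP2KO minus WT, log2 units) was -1.60 for Il6, 0.50 for Ebi3 and 0.90 for Il10ra. By limma's interaction term the adjusted p was 0.190, 0.233 and 0.150, so 0 of the 3 passed.

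For Il11, EP2KO 4 stood apart from the 3 other EP2KO arrays: its gap to the nearest of them was 0.905 of the group's range, above Dixon's 95% critical value for 4 samples. This was 1 of 56 groups of 4 arrays examined, where chance gives about 2.8.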

How the results depend on the processing

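Over all features, 2 were called for genotype, 4 with the slide as a block, 0 with the replicate block, 0 on slide 1 alone, 217 on slide 2 alone, and 0 to 4 when 1 array was left out. The 7 genes stayed at 0 calls in 22 alternatives, the replicate block included. Their median difference ran from -0.15 to 0.14 when 1 array was left out. The median EP2KO minus WT difference over all features was -0.03 with the main scaling, 0.12 with median scaling and -0.12 with normexp. Il10 and Socs3 kept their negative sign in 22 and 23 alternatives, with -0.89 to -0.27 (without EP2KO 4) and -0.997 to -0.11 (without WT 2) when 1 array was left out. The sign turned for Osm with normexp (-0.28) and on slide 2 (-0.0042), for Il6 with quantile normalization (0.028), array weights (0.33) and on slide 1 (0.63), for Il27 with median scaling (0.063), and on slide 1 for Ebi3 (-0.23) and Il10ra (-0.40). Leaving out 1 array gave -1.16 to 0.99 for Il6, -0.22 to 0.087 for Il27, -0.15 to 0.18 for Ebi3 and -0.13 to 0.26 for Il10ra.

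The interaction called 3 features, 0 with normexp, 1 without the filter, 14 with detection on all 8 arrays, 5 with median scaling, and 0 to 1442 when 1 array was left out (1442 without WT 1, 80 without WT 4, 9 without EP2KO 3). Its sign turned for Il27 with quantile normalization (0.033) and median scaling (0.27; -0.18 to 0.11 with 1 array left out) and for Socs3 with median scaling (0.095; -0.76 to 0.34). Of the 5 genes called between slides, 3 were called with normexp and 4 to 5 with 1 array left out; with normexp the slide difference turned for Il10 (0.18) and Osm (0.17). The causes were not tested. Il10 has no value under the stricter filter. Signals near background limit Il10, Lif, Il23a and Il6 on slide 2, whose slide difference was -2.88 with normexp.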
